A study of Mus musculus with 6 samples.

Results

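The genes described here encode enzymes that remove coenzyme A from fatty acyl groups or cleave coenzyme A itself. They are the acyl-CoA thioesterases Acot1, Acot2, Acot3, Acot4, Acot5, Acot8 and Acot12 and the nudix hydrolases Nudt7 and Nudt19. They were chosen by symbol in the deposited count table, where each of the 9 symbols matched 1 of 30029 genes. Of the 9, 8 passed the filter on low counts and Acot5 had no read in any library. The libraries were made from polyadenylated RNA of mouse liver. There were 3 labelled wild type and 3 labelled knockout for Atp7b (-/-), and both groups had been on a high-fat diet for 24 weeks, and no group on another diet is analysed here. ATP7B is the copper-exporting ATPase of hepatocytes. The labels used here do not give the strain, sex or age of the animals, the allele, or whether each library came from 1 animal, and the spread behind each p-value is that between these libraries, which may be technical.

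As background, a fatty acid enters metabolism as its coenzyme A ester, and acyl-CoA thioesterases hydrolyse that ester back to a free acid and free coenzyme A. The type I thioesterases of the mouse are a duplicated family whose products sit in different compartments: ACOT1 in the cytosol, ACOT2 in mitochondria, and ACOT3, ACOT4 and ACOT5 in peroxisomes, with ACOT4 preferring succinyl-CoA and other dicarboxylic esters. ACOT8 is a peroxisomal thioesterase of broad specificity that also acts on bile acid esters, and ACOT12 is a cytosolic acetyl-CoA hydrolase of liver. NUDT7 and NUDT19 are peroxisomal diphosphatases that cut coenzyme A and its esters within the nucleotide part; in mice NUDT7 is the main one of liver and NUDT19 of kidney. Acot1 to Acot4 are known targets of the fatty acid receptor PPARA.

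Total counts ran from 57886524 to 70965999 per library, and the members together took 38796 to 54406 of them. For Atp7b the wild-type-labelled libraries held 909, 1192 and 2051 counts and the knockout-labelled ones 1987, 1908 and 2087, a log2 fold change of 0.05 ± 0.23 (SE; adjusted p = 0.939, edgeR). The targeted gene was thus not lower in the knockout-labelled libraries and did not check the labels, and every direction below is that of the labels. On the leading principal component of log2 counts, which held 55.8% of the variance, the 2 groups lay apart. On the next (17.0%) labelled wild-type replicate 1 lay with labelled knockout replicates 1 and 2, and labelled wild-type replicates 2 and 3 with labelled knockout replicate 3. All 15 hepatocyte markers listed were detected, with Alb at 28647 to 45398 CPM (the usual counts-per-library-size unit, with library totals scaled by TMM, edgeR's trimmed mean method).

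Acot1 to Acot5 lie with Acot6 on the plus strand of chromosome 12, in the order Acot2, Acot1, Acot4, Acot3, Acot5, Acot6, between bases 84034635 and 84158123 (123.5 kb, GRCm39, coordinates of the deposited table). The others lie alone: Acot8 on chromosome 2 (164634685 to 164646802, minus strand), Acot12 on chromosome 13 (91889631 to 91934267, plus strand), Nudt7 on chromosome 8 (114860297 to 114881479, plus strand) and Nudt19 on chromosome 7 (35246610 to 35255729, minus strand). The 250 bases before the start of the 5 cluster members and of Nudt7 are shown because the results turn most on Nudt7 and on Acot1 to Acot4; Acot5, with no reads, completes the set of members in the cluster. They are from RefSeq on GRCm38.p6, 5′ to 3′, and all 9 members matched that table. Capitals mark CCAAT or its complement ATTGG, the GC box GGGCGG or CCGCCC, the TATA box TATAAA or TTTATA, the nuclear receptor core site AGGTCA or TGACCT, and a relaxed direct repeat (GGNCA, any base, then AGGNCA, on either strand), which can overlap the core site. Where RefSeq lists several starts for a gene, its first window was used.
Acot2 (chr12:83987611-83987860, plus strand): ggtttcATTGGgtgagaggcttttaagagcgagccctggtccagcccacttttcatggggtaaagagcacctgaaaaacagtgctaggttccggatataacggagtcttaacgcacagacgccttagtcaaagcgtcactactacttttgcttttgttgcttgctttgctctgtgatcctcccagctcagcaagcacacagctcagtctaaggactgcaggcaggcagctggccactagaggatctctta
Acot1 (chr12:84009252-84009501, plus strand): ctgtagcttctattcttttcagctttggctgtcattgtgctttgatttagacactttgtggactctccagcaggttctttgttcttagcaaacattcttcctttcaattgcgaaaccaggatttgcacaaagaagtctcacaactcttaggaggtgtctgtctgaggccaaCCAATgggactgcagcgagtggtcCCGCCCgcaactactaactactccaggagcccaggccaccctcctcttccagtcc
Acot4 (chr12:84038129-84038378, plus strand): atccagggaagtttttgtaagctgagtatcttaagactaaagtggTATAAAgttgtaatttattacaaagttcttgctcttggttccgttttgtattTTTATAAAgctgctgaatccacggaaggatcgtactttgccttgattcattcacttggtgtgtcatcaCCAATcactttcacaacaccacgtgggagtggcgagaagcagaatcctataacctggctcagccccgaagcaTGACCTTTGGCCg
Acot3 (chr12:84051894-84052143, plus strand): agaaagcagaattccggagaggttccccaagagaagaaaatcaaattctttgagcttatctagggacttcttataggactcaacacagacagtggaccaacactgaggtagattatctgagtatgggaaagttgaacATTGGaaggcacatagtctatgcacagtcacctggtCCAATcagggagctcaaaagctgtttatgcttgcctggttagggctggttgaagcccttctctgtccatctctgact
Acot5 (chr12:84069074-84069323, plus strand): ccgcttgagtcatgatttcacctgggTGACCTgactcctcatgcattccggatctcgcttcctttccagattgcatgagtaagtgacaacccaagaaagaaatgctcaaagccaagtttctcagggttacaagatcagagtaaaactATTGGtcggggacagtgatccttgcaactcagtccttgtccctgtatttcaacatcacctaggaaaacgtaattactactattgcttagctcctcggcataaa
Nudt7 (chr8:114133368-114133617, plus strand): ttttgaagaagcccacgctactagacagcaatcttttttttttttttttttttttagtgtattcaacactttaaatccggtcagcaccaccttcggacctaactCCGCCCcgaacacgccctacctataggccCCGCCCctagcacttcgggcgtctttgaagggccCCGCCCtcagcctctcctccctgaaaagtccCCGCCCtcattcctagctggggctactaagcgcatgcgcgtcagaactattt
CCAAT was in the windows of Acot1 to Acot5 and Acot8, 6 of 9 members, against 34.5% of the 27025 genes with a window. The GC box was in Acot1, Acot8, Acot12 and Nudt7, 4 of 9 against 32.9%, with 4 copies before Nudt7. The relaxed direct repeat, the spacing that PPARA and HNF4A are known to bind, matched only Acot4 of the 9 members, at bases -13 to -2, against 0.67% of genes, and the strict repeat, 2 copies of AGGTCA with 1 base between, matched no member and 0.037% of genes. TATAAA was in Acot4 alone, against 13% of genes. The core site was in Acot4, Acot5 and Acot12, 3 of 9 against 13.8%. A match is a description of letters, and the motifs were chosen with the sequences in view.

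The cluster members resemble each other, which bears on how reads are assigned. Over aligned coding bases Acot1 and Acot2 were 95.5% identical, with 56 differences in 1239 bases and an identical run of 273 bases, while Acot4 was 75.2% to 76.6% identical to the other 5 genes of the cluster. The 150 coding bases of Acot1 and Acot2 with the most differences, among stretches aligned without a gap, are given here from GENCODE vM21 transcripts. The 14 differing bases are in capitals. Coding bases with no counterpart in the alignment were outside this search: 1239 bases aligned, of 1260 in Acot1 and 1362 in Acot2.
Acot1, coding bases 158 to 307: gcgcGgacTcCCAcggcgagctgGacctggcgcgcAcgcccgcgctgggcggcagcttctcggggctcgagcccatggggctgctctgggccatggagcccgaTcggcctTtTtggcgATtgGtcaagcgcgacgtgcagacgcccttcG
Acot2, coding bases 281 to 430: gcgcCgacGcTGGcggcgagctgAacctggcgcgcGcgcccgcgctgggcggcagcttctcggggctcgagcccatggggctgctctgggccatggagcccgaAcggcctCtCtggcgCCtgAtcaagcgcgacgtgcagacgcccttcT
Of all windows of 75 bases in the annotated transcripts, 15% of those of Acot1, 21.2% of Acot2, 16% of Acot3 and 1.67% of Acot4 also occurred in another gene. With windows of 150 bases the shares were 6.92%, 10.2%, 10.7% and 0%. No window of Acot8, Acot12, Nudt7 or Nudt19 was shared at either length. The sources used here give neither the read length nor the treatment of shared reads, and the split of counts among Acot1, Acot2 and Acot3 is therefore uncertain, whereas Acot4 and the 4 genes outside the cluster are nearly or wholly distinct.

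Between the groups, Nudt7 was lower in the knockout-labelled libraries and no other member passed the test. Nudt7 fell 2.74-fold, and it held 34.8% to 79.0% of the members' reads across the libraries. Acot1 to Acot4 had positive log2 fold changes of 1.17 to 3.06 with wide intervals, and those of Nudt19, Acot8 and Acot12 lay between -0.25 and 0.22. Of the 8 tested members 1 was called lower (edgeR's quasi-likelihood test, adjusted p under 0.05 over 17606 genes), where 0.506% of all tested genes were called lower and 1.44% in either direction. None was called higher, against 0.932% of all genes. At an unadjusted p under 0.05 there were 3 members, Acot2 and Acot4 higher and Nudt7 lower, against 19.7% of all genes in either direction. The groups did not overlap for 3 members, Nudt7, Acot2 and Acot4, and for 25.7% of all genes. DESeq2 called Nudt7 lower and Acot2 and Acot4 higher, and it called 10.6% of all genes. limma voom called none of the members and 0.403% of all genes.

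**Figure D1:**
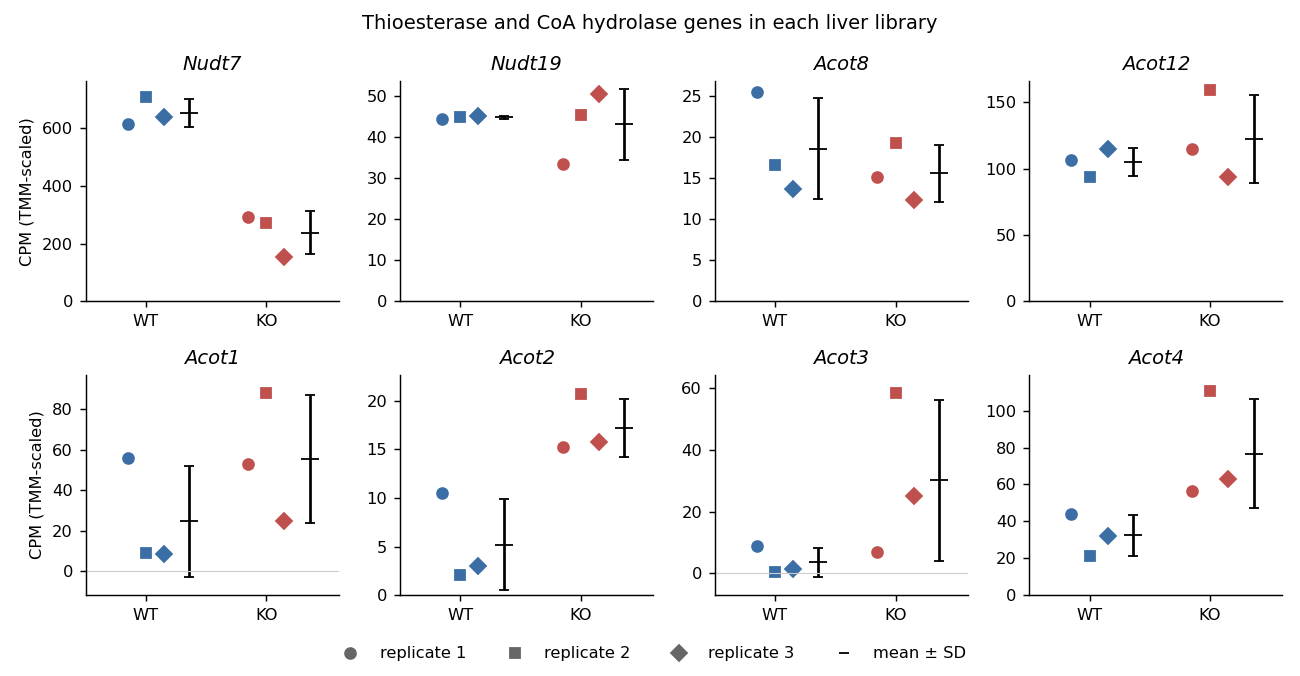
Level of each tested member in every library, in TMM-scaled CPM (linear axes, one scale per gene; replicates by symbol; bars are mean ± SD, n = 3). The 3 labelled knockout libraries lie below all labelled wild-type libraries for Nudt7 and above them for Acot2 and Acot4, and labelled wild-type replicate 1 lies above the other 2 for Acot1 to Acot4.

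**Figure D2:**
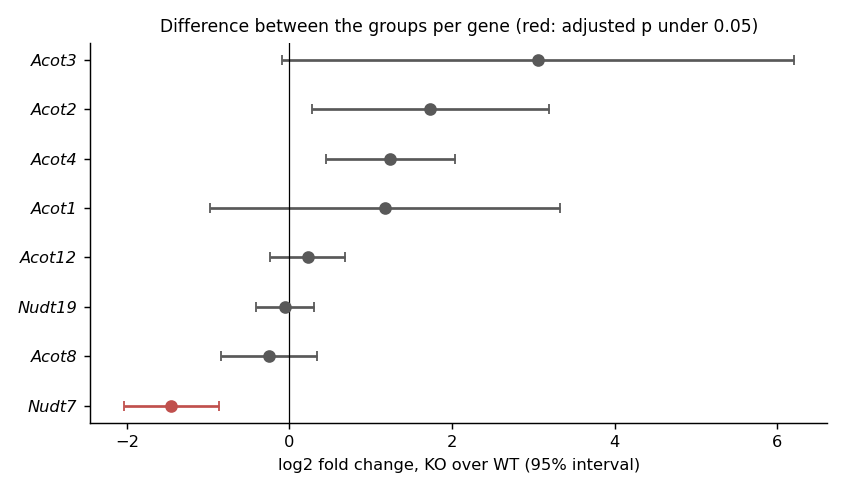
Log2 fold change of each tested member, labelled knockout over labelled wild type, with its 95% interval from edgeR's quasi-likelihood fit. Only Nudt7, in red at -1.46, had an adjusted p under 0.05, and the intervals of Acot2 and Acot4 also exclude 0 before adjustment.

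Of the coenzyme A diphosphatases among the members, Nudt7 fell and Nudt19 did not pass the test. Nudt7 (ENSMUSG00000031767) was at 615, 708 and 637 CPM in the wild-type-labelled libraries and at 292, 270 and 153 CPM in the knockout-labelled ones. The lowest wild-type library was above the highest labelled knockout library, and labelled knockout replicate 3 was the lowest of all. The means were 653 ± 48.4 and 238 ± 74.9 CPM (SD, n = 3 in each group). The log2 fold change was -1.46 ± 0.26 (SE; 95% interval -2.04 to -0.87; edgeR, adjusted p = 0.0464, unadjusted p = 0.000408). The call sat at the threshold: with 1 library left out the log2 fold change stayed between -1.63 and -1.22, and the adjusted p was 0.0350 without labelled knockout replicate 2 and between 0.0537 and 0.184 without each of the other 5. Those adjusted p-values also move with the number of genes called, which ran from 0 to 912 of the genes tested when 1 library was left out.

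Nudt19 (ENSMUSG00000034875) was at 44.3, 44.8 and 45.2 CPM in the wild-type-labelled libraries, a CV of 0.935%. In the knockout-labelled ones it was at 33.4, 45.2 and 50.4 CPM, on both sides of the wild-type values. Its log2 fold change was -0.06 ± 0.16 (95% interval -0.42 to 0.30; edgeR, adjusted p = 0.895), and the sign turned to 0.28 with scaling by total counts. The ratio of Nudt19 to Nudt7 counts, which no scaling of libraries can change, was 0.0721, 0.0633 and 0.0709 in the wild-type-labelled libraries and 0.115, 0.167 and 0.330 in the knockout-labelled ones. Every labelled knockout ratio was above every wild-type ratio, with a mean difference of 1.43 in log2 ratio (exact permutation test, two-sided, p = 0.1, the smallest that 3 against 3 libraries allow). Nudt7 gave 67.5%, 79.0% and 74.5% of the members' reads in the wild-type-labelled libraries and 49.8%, 35.0% and 34.8% in the knockout-labelled ones.

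Acot1 to Acot4 of the chromosome 12 cluster had higher means in the knockout-labelled libraries but did not pass the test. Their highest library was 2.06-fold to 21.8-fold above the lowest among those labelled wild type, and 1.35-fold (Acot2) to 8.50-fold (Acot3) among those labelled knockout. Acot4 (ENSMUSG00000052392), the peroxisomal succinyl-CoA thioesterase and the member of the cluster whose sequence is least shared, was at 43.8, 21.2 and 32.2 CPM in the wild-type-labelled libraries and 56.3, 111 and 63.2 CPM in the knockout-labelled ones. The groups did not overlap, and the log2 fold change was 1.24 ± 0.34 (95% interval 0.45 to 2.03; edgeR, adjusted p = 0.105; DESeq2, adjusted p = 0.00243). With total-count scaling, under which the median log2 fold change over all genes was 0.31 in place of -0.02 and which called 5.73% of them, Acot4 was at 1.53 (adjusted p = 0.0342). Mitochondrial Acot2 (ENSMUSG00000021226) was at 10.5, 2.03 and 3.01 CPM against 15.3, 20.7 and 15.8 CPM. Its groups did not overlap either, and the log2 fold change was 1.73 ± 0.61 (95% interval 0.28 to 3.19; edgeR, adjusted p = 0.187; DESeq2, adjusted p = 0.00865).

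For cytosolic Acot1 and peroxisomal Acot3 the groups overlapped. Acot1 (ENSMUSG00000072949) was at 56.2, 9.14 and 8.30 CPM in the wild-type-labelled libraries and 53.0, 88.1 and 25.0 CPM in the knockout-labelled ones. Labelled wild-type replicate 1 exceeded 2 of the 3 labelled knockout libraries, and the log2 fold change was 1.17 ± 0.88 (95% interval -0.97 to 3.32; adjusted p = 0.536). Acot3 (ENSMUSG00000021228) was at 9.02, 0.413 and 1.45 CPM against 6.87, 58.4 and 25.2 CPM. Its range within each group was the widest of the tested members, and its log2 fold change was 3.06 ± 1.27 (95% interval -0.09 to 6.21; adjusted p = 0.267). Acot5 (ENSMUSG00000042540) had 0 counts in each library, which allows up to 0.0339 to 0.0578 CPM per library (3 counts, covering counting error only). Acot6, the remaining gene of the cluster and no member, was at 1.89 to 3.55 CPM in all 6 libraries, with a log2 fold change of 0.07 ± 0.33 (adjusted p = 0.949).

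Because reads could be split among these genes, they were also fitted as sums. Acot1 and Acot2 together had 3463, 595 and 684 counts in the wild-type-labelled libraries and 5230, 7668 and 3605 in the knockout-labelled ones, a log2 fold change of 1.29 ± 0.81 (edgeR, adjusted p = 0.452). All 6 genes of the cluster together were at 122, 34.9 and 47.3 CPM against 133, 280 and 133 CPM. Their groups did not overlap, though labelled wild-type replicate 1 came close to labelled knockout replicates 1 and 3, and the log2 fold change was 1.42 ± 0.55 (adjusted p = 0.224). The make-up of the cluster also varied. Acot3 gave 7.37%, 1.18% and 3.08% of the cluster's reads in the wild-type-labelled libraries and 5.15%, 20.9% and 19.0% in the knockout-labelled ones, while Acot4 gave 35.8% to 68.2% and 39.5% to 47.6%.

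Labelled wild-type replicate 1 had the highest level of its group for Acot1, Acot2, Acot3 and Acot4, and their fold changes were larger without it. Without it Acot2 passed the test, with a log2 fold change of 2.77 ± 0.26 (adjusted p = 0.0172), and so did the sum of Acot1 and Acot2, at 2.69 ± 0.44 (adjusted p = 0.0477); 2.07% of all genes were called in that fit. Acot1 moved to 2.66 (adjusted p = 0.0871), Acot3 to 4.99 (adjusted p = 0.117) and Acot4 to 1.52 (adjusted p = 0.0871). Without labelled knockout replicate 2, the library highest in Acot1 to Acot4, the values moved the other way. They were 0.71 for Acot1 (adjusted p = 0.777), 2.18 for Acot3 (adjusted p = 0.443) and 1.00 for the sum of the cluster (adjusted p = 0.366). Acot2 moved less, to 1.62 (adjusted p = 0.256). Acot4 was at 0.91, with an adjusted p of 0.103 beside 0.105 with all 6 libraries. Among other genes known as PPARA targets, the microsomal fatty acid hydroxylases Cyp4a10 and Cyp4a14 and the pantetheinase Vnn1 were also high in labelled knockout replicate 2. Cyp4a10 was at 457, 38.5 and 26.8 CPM in the wild-type-labelled libraries and 419, 911 and 225 CPM in the knockout-labelled ones. Vnn1 was at 174, 31.3 and 24.3 CPM against 138, 159 and 71.0 CPM. Cyp4a10 and Cyp4a14 in labelled wild-type replicate 1 thus lay within the range of the labelled knockout libraries, and Vnn1 above it. Ppara itself did not follow this order: it was at 42.8, 64.6 and 69.2 CPM against 65.7, 62.5 and 48.2 CPM, lowest in labelled wild-type replicate 1 (log2 fold change -0.00 ± 0.20, 95% interval -0.47 to 0.46, adjusted p = 0.998). Some other listed targets were highest in another knockout-labelled library. Pdk4 was at 24.2, 18.9 and 8.41 CPM in the knockout-labelled libraries, and Fgf21 at 3.28, 4.61 and 6.32 CPM. Ppara is named as the receptor, and Cyp4a10, Cyp4a14, Vnn1, Pdk4 and Fgf21 were chosen after their values were seen.

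**Figure D3:**
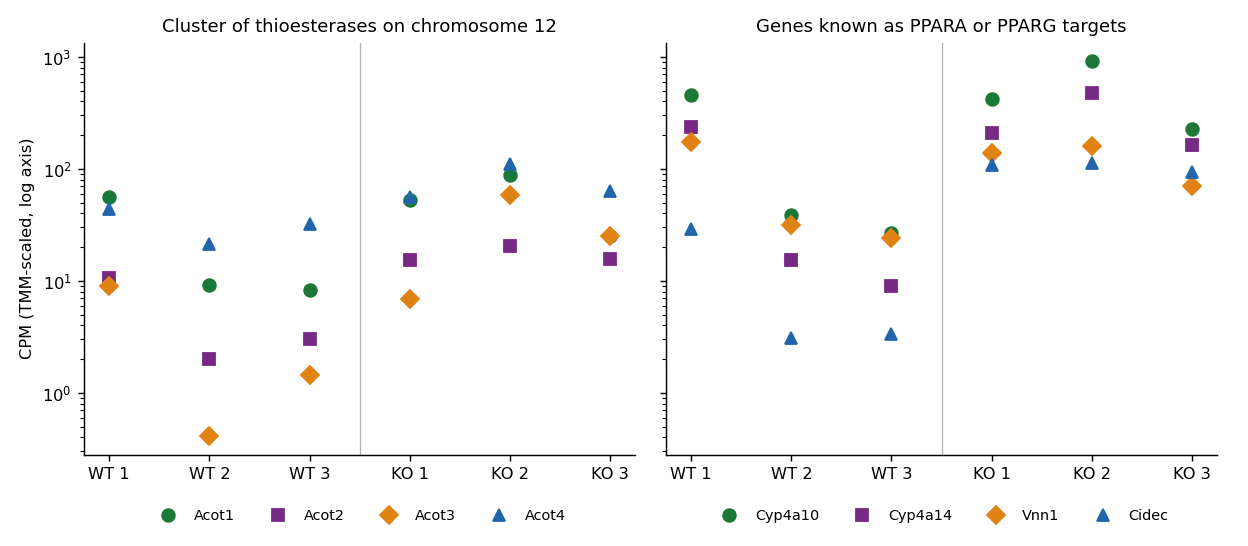
Levels of Acot1 to Acot4 (left) and of 4 other genes known to respond to PPARA or the related PPARG (right) in every library, in TMM-scaled CPM on a log axis. Labelled wild-type replicate 1 lies above replicates 2 and 3 for all 8 genes, and Acot1 at 56.2 and Cyp4a10 at 457 CPM lie within the range of the labelled knockout libraries.

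**Figure D4:**
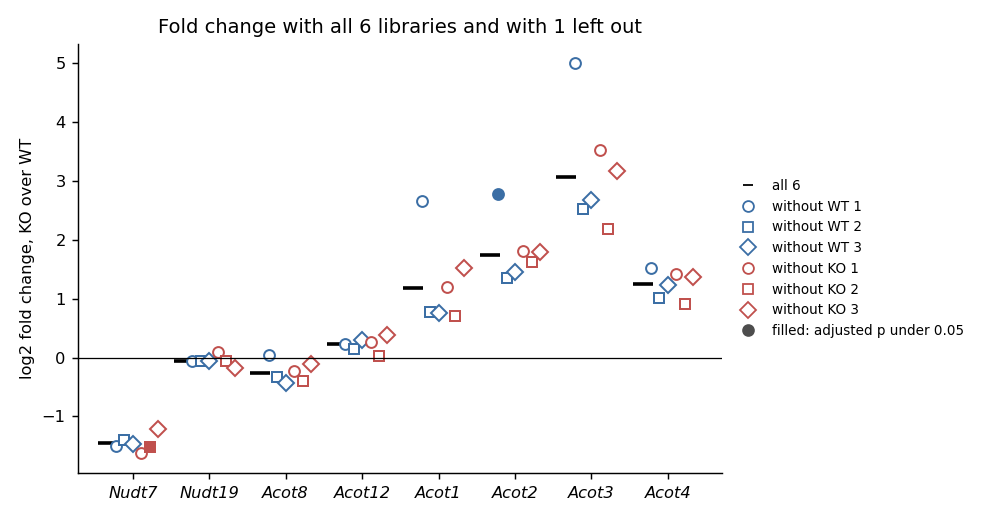
Log2 fold change of each tested member with all 6 libraries (bars) and with 1 library left out (symbols; filled where the adjusted p was under 0.05). Nudt7 stays between -1.63 and -1.22, whereas Acot1 moves from 1.17 to between 0.71 and 2.66 and Acot3 from 3.06 to between 2.18 and 4.99, lowest without labelled knockout replicate 2 and highest without labelled wild-type replicate 1.

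At the Acot4 and Acot3 loci, 2 further annotated genes overlap them in the deposited table. Gm49366, on the same strand, spans bases 84085285 to 84105800 from Acot4 into Acot3, and 10.3% of the 3463 windows of 75 bases of Acot3 also occur in it. Its annotated exons total only 429 bases (GENCODE vM21), so these shared windows make up most or all of its own sequence. Whether its counts are separate from those of Acot3 depends on how shared reads were counted, which the sources used here do not give. It had 23, 4 and 24 counts in the wild-type-labelled libraries and 292, 229 and 304 in the knockout-labelled ones, a rise of 3.51 ± 0.56 on the log2 scale (edgeR, adjusted p = 0.0447), and is named after its values were seen. Acot3 itself had 468, 22 and 88 counts against 526, 4115 and 2228, and the part of shared reads in either gene was not tested. On the opposite strand 4732463B04Rik had 46 to 323 counts (log2 fold change 1.43 ± 0.45, adjusted p = 0.132). Acot8 overlaps Snx21 of the opposite strand by 1052 bases, and the sources used here do not say whether counting used strand.

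The single-copy thioesterases Acot8 and Acot12 did not pass the test. Acot8 (ENSMUSG00000017307) was at 25.5, 16.7 and 13.7 CPM in the wild-type-labelled libraries and 15.1, 19.3 and 12.4 CPM in the knockout-labelled ones. The groups overlapped, and the log2 fold change was -0.25 ± 0.26 (95% interval -0.84 to 0.33; adjusted p = 0.652), which turned to 0.04 without labelled wild-type replicate 1 and to 0.05 with total-count scaling. Acot12 (ENSMUSG00000021620), the cytosolic acetyl-CoA hydrolase, was at 107, 93.4 and 115 CPM against 115, 159 and 94.0 CPM. Apart from labelled knockout replicate 2 these libraries lay between 93.4 and 115 CPM, and the log2 fold change was 0.22 ± 0.20 (95% interval -0.24 to 0.69; adjusted p = 0.612).

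The shares and ratios of reads given above are not corrected for gene length. Levels of different members are compared here after division by exon length (union of annotated exons, GENCODE vM21). By that measure Nudt7 held 54.9%, 67.7% and 62.8% of the members' summed level in the wild-type-labelled libraries. In the knockout-labelled ones it held 37.7%, 25.5% and 24.5%. In the wild-type-labelled libraries the level was 116 ± 8.61 CPM per kb for Nudt7, 31.9 ± 3.27 for Acot12, 16.7 ± 0.156 for Nudt19, 9.31 ± 3.08 for Acot8, 6.26 ± 6.99 for Acot1, 4.86 ± 1.69 for Acot4, 2.36 ± 2.12 for Acot2 and 1.06 ± 1.37 for Acot3 (SD, n = 3). From Acot8 downward each member's range reached that of the next. In the knockout-labelled libraries the level was 42.4 ± 13.3 CPM per kb for Nudt7, 37.2 ± 10.1 for Acot12, 16.1 ± 3.24 for Nudt19, 14.1 ± 8.06 for Acot1, 11.5 ± 4.42 for Acot4, 8.77 ± 7.59 for Acot3, 7.85 ± 1.36 for Acot2 and 7.80 ± 1.75 for Acot8. There Nudt7 and Acot12 were not separated: Nudt7 was the higher in replicate 1 (51.9 against 34.8 CPM per kb), and Acot12 in replicates 2 and 3 (48.3 against 48.1 and 28.5 against 27.2 CPM per kb). Division by the longest transcript, chosen after seeing the data, kept Nudt7 and Acot12 in the leading places but put Nudt7 further ahead, at 67.2 ± 21.2 against 40.1 ± 10.9 in the knockout-labelled libraries, and put Acot1 before Nudt19 there.

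**Figure D5:**
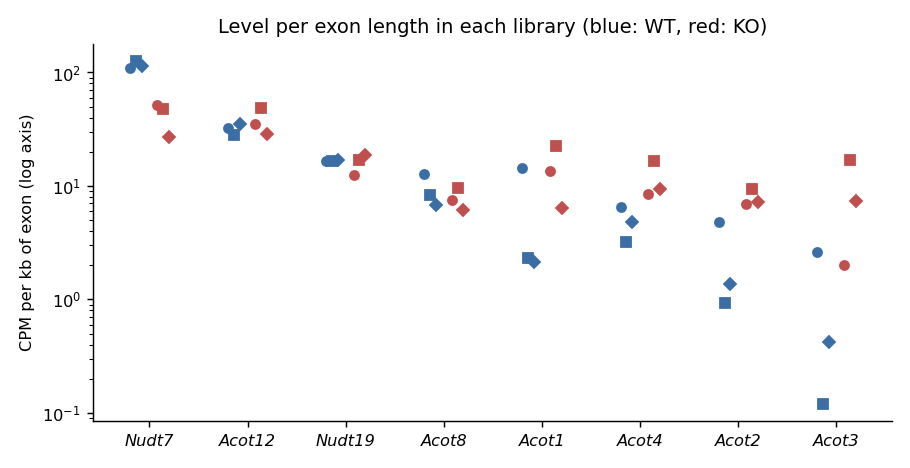
Level per kilobase of annotated exon in every library, in TMM-scaled CPM per kb on a log axis, for the 8 tested members (circles, squares and diamonds are replicates 1, 2 and 3). Nudt7 is near 116 CPM per kb in the wild-type-labelled libraries and near 42.4 in the knockout-labelled ones, where it meets Acot12, and Acot3 spans the widest range.

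The other genes of acyl-CoA metabolism were taken from lists. With all 6 libraries none of their tested genes was called by limma voom or by TMM-scaled edgeR after the filter on low counts. Without that filter edgeR called 1.70% of all genes, among them Acot9 higher and Acsm2 lower. Of 13 other tested thioesterases and related acyltransferases, 0 passed; 1 was higher and 3 were lower at an unadjusted p under 0.05, DESeq2 called 1 higher and 2 lower, and the median log2 fold change was -0.07, against -0.02 for all tested genes. Mitochondrial Acot9 had the smallest p, at 4.74 ± 0.920 CPM in the wild-type-labelled libraries and 10.7 ± 2.61 CPM in the knockout-labelled ones (1.18 ± 0.24 on the log2 scale, adjusted p = 0.0519). Acnat2, one of the related acyltransferases, was at 66.9, 67.5 and 28.4 CPM against 25.7, 23.7 and 15.8 CPM (log2 fold change -1.32 ± 0.35, adjusted p = 0.104). Of 17 genes of coenzyme A synthesis, transport and other breakdown 0 passed, with 2 higher and 1 lower at an unadjusted p under 0.05, 1 lower by DESeq2 and a median of -0.10. The ectonucleotidase Enpp3 was at -0.66 ± 0.18 (adjusted p = 0.088), and the pantothenate and biotin carrier Slc5a6 at 0.37 ± 0.12 (adjusted p = 0.141). The pantothenate kinases Pank1 to Pank4, which start coenzyme A synthesis, had log2 fold changes of -0.16, 0.13, 0.27 and 0.06 (adjusted p of 0.426 to 0.884), and are named for that role.

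Acyl-CoA synthetases, which make the esters that thioesterases cleave, had 0 of 19 tested genes called, 3 higher and 2 lower at an unadjusted p under 0.05, 1 higher and 1 lower by DESeq2, and a median of 0.01. Acsm2, a medium-chain synthetase, had 35, 108 and 135 counts in the wild-type-labelled libraries and 23, 14 and 13 in the knockout-labelled ones (-2.93 ± 0.58, adjusted p = 0.0511). The fatty acid transporter Slc27a1 was at 0.62 ± 0.19 (adjusted p = 0.125). Peroxisomal oxidation and carnitine transfer, the compartment of NUDT7, had 0 of 21 called, 2 higher and 2 lower at an unadjusted p under 0.05, 2 higher by DESeq2, and a median of 0.08. Abcd2, a peroxisomal acyl-CoA transporter, was at 3.91, 2.18 and 1.70 CPM against 12.6, 13.7 and 38.9 CPM (3.07 ± 0.56, adjusted p = 0.0538), and the fatty aldehyde dehydrogenase Aldh3a2 was at 1.11 ± 0.36 (adjusted p = 0.145). Mitochondrial beta-oxidation had 0 of 16 called, 0 at an unadjusted p under 0.05 in either direction, 0 by DESeq2, and a median of 0.13, with Cpt1a at 0.31 ± 0.16 (adjusted p = 0.353) and Hadhb at 0.33 ± 0.18 (adjusted p = 0.359). PPARA and its other known targets had 0 of 18 called, 2 higher at an unadjusted p under 0.05 and by DESeq2, 15 positive log2 fold changes and a median of 0.54. The 2 were the uncoupling protein Ucp2 (0.87 ± 0.25, adjusted p = 0.107) and the lipid droplet protein Cidec (3.15 ± 0.95, adjusted p = 0.149). Over all 17606 tested genes, 8446 had positive log2 fold changes, 2121 were higher at an unadjusted p under 0.05, and DESeq2 called 1313 higher. Without labelled wild-type replicate 1 the PPARA list held 5 genes called higher, among them Cidec and Cyp4a14, and the peroxisomal list 2, Ehhadh and Crat. In that fit 273 of 18475 tested genes were called higher.

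Of the markers of other liver cells, some stellate, macrophage and bile duct genes were called higher and no endothelial, lymphocyte or neutrophil gene was called. Stellate cell and fibroblast markers had 3 of 12 genes called higher (Dcn, Lum and Colec11) and 0 lower, against 0.932% of all tested genes called higher. At an unadjusted p under 0.05, 11 were higher and 0 lower. Of all 17606 tested genes, 2121 were higher and 1356 lower at that threshold. The summed level of the stellate markers was 334 to 364 CPM in the wild-type-labelled libraries and 693 to 1143 CPM in the knockout-labelled ones. The summed level of the 12 macrophage markers was 550 to 949 CPM in the wild-type-labelled libraries and 996 to 1571 CPM in the knockout-labelled ones. Of these 12 genes 1, Cd68, was called higher. The other macrophage genes were not called and did not share a sign. Of the 12, 8 had positive and 4 negative log2 fold changes, and 6 were higher and 0 lower at an unadjusted p under 0.05. The 4 negative ones were Clec4f, Timd4, Vsig4 and Marco, known from resident Kupffer cells, at -0.91, -1.33, -0.42 and -1.39. Bile duct markers had 2 of 9 tested called higher, Krt23 and Anxa3, and 6 higher and 0 lower at an unadjusted p under 0.05. Their summed level was 86.0 to 117 against 101 to 676 CPM. Most of that sum was Spp1, which is also in the macrophage list and was at 74.8 to 103 CPM against 74.5 to 581 CPM. These calls depended on the libraries and the tool. With 1 library left out, 0 to 9 stellate, 0 to 5 macrophage and 0 to 6 bile duct genes were called higher, the most without labelled knockout replicate 2 and none of any list without labelled wild-type replicate 2 or labelled knockout replicate 1. Without labelled wild-type replicate 3 there was 1 bile duct gene and none of the other lists. DESeq2 called 10, 5 and 5 higher, limma voom 2, 1 and 1, and total-count scaling 8, 4 and 2. Endothelial markers had 0 of 9 called, with 4 higher at an unadjusted p under 0.05, 1 by DESeq2 and 0 by limma voom. Their summed level was 149 to 185 against 138 to 231 CPM. Lymphocyte and neutrophil markers had 0 of 11 tested called, with 1 higher at an unadjusted p under 0.05, 1 by DESeq2 and 0 by limma voom. The summed level of that list was 4.52 to 9.77 against 6.40 to 14.8 CPM. Hepatocyte markers had 0 of 15 called, 13 negative and 2 positive log2 fold changes, 2 lower at an unadjusted p under 0.05, 1 lower by DESeq2, 0 by limma voom, and a median of -0.30, beside -1.46 for Nudt7. Of defining markers, the neutrophil gene Ly6g was at 0 counts in labelled wild-type replicate 1 and all 3 knockout-labelled libraries. The part of these cells in the result for Nudt7 was not tested, and in bulk tissue fewer hepatocytes and less RNA per hepatocyte cannot be told apart.

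Genes most like each member across the 6 libraries were sought among the 12159 other genes whose mean reached 1 CPM, by Pearson's r of log2(CPM + 1). This describes likeness of pattern over 6 libraries that share their scaling, and many genes come close: 491 had an r above 0.9 with Nudt7 and 66 to 301 with each of the other tested members. Nearest to Nudt7 were Rufy3 (r = 0.998), Cyp2u1 (0.996), a cytochrome P450 that fell with a log2 fold change of -1.16 ± 0.20 (adjusted p = 0.0462), and Tab2 (0.993). For Nudt19 they were Ctf1, Cdkn2d and Mrm3 (0.979 to 0.990). For Acot1 they were Evi2b, Fabp7 and Laptm4b (0.992 to 0.997), and for Acot2 Ephx1, Slamf8 and Anxa7 (0.986 to 0.990). For Acot3 they were Tspan14, Cmas and Slc48a1 (0.993 to 0.995), and for Acot4 Rdm1, Ghitm and Pctp (0.986 to 0.992). For Acot8 they were Fbxo31, Csrp3 and Tusc2 (0.983 to 0.994), and for Acot12 Dnajb6 and Rnf167 (both 0.984). Among the members themselves, Acot1 to Acot4 had pairwise r of 0.813 to 0.965, and Nudt7 had r of -0.791 to -0.465 with them. Group means were not removed before any of these correlations, so each r includes the difference between the groups.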

How the data were processed

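RNA of mouse liver, extracted with Trizol, selected for poly(A) and made into dUTP libraries per the labels' protocols, was measured in 6 libraries. The authors deposited raw read counts per gene, whole numbers with 1 column per library. GRCm39 and edgeR are named in the submitters' processing notes, with no role or version. The sources used here do not give the aligner, counter, annotation or use of strand. Columns were matched to samples by title. No 2 libraries of a group agreed within counting noise (the lowest chi-square per gene was 58.0), and all were kept.

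The edgeR 4.0.16 quasi-likelihood F test (R 4.3.3, robust, TMM, filterByExpr, 17606 of 30029 genes kept) compared the groups, with Benjamini-Hochberg adjustment over all tested genes and a threshold of 0.05. SEs and 95% intervals follow from the F statistic. Alternatives were DESeq2 1.42.0, voom of limma 3.58.1, other scalings and filters, the replicate number as a block, and leaving out each library, where the spread was pooled over both groups. Members, lists and tests were chosen with earlier results of these data known. Named genes were all members, up to 4 called genes of each list or, where none was called, the 2 with the smallest p, Ppara, and the 3 genes most like each member; some genes chosen this way are not reported here. The motifs were chosen after the sequences were seen. Lengths and transcripts came from GENCODE vM21 (GRCm38) by gene identifier, and promoters from RefSeq. Floors of 3 counts cover counting error only, because PCR copies of a molecule cannot be told from separate molecules.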

Additional observations from a re-analysis of the deposited data

How the results depend on the processing

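All 8 tested members kept their sign under every alternative, except Acot8 (0.050 with total counts; -0.44 to 0.039 with 1 library left out, positive only without labelled wild-type replicate 1) and Nudt19 (0.28 with total counts; -0.19 to 0.095 with 1 library left out, positive only without labelled knockout replicate 1). Nudt7 was not called by limma voom (-1.50, adjusted p = 0.0509) or with the replicate block (-1.51, adjusted p = 0.0651), and ran from -1.63 to -1.22 with 1 library left out. Acot2 was called by DESeq2 (1.74) and ran from 1.35 to 2.77 with 1 library left out; Acot4 was called by DESeq2 (1.25) and with total counts (1.53). The sum of Acot1 and Acot2 ran from 0.89 to 2.69 with 1 library left out. Members called lower were 0 with limma voom and with the replicate block, and 0 to 1 with 1 library left out. Members called higher were 1 with total counts, 2 with DESeq2 and 0 to 1 with 1 library left out.

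The replicate numbers gave no sign of pairing the samples, though 3 libraries per group cannot exclude a weak pairing. Deviations from group means of same-numbered libraries had r of -0.0267, -0.0616 and -0.0337. The block is therefore given here only. With it 4 genes in all were called, and 0 stellate, macrophage or bile duct markers. limma voom called 71 genes, DESeq2 1867, total counts 1008, no filter 473, and 1 library left out 0 to 912, against 253. Of listed pathway genes with total counts, 1 synthetase was called lower; 2 coenzyme A genes, 2 beta-oxidation genes, 1 other thioesterase, 2 peroxisomal genes and 1 PPARA target were called higher. With no filter 1 synthetase was lower and 1 other thioesterase higher. With DESeq2 1 synthetase, 1 other thioesterase, 2 peroxisomal genes and 2 PPARA targets were higher, and 1 synthetase, 1 coenzyme A gene and 2 other thioesterases lower. With 1 library left out the ranges were 0 to 1 for synthetases lower, coenzyme A genes higher, other thioesterases higher and peroxisomal genes lower, 0 to 2 for peroxisomal genes higher and 0 to 5 for PPARA targets higher. The cause of these changes was not tested. Acot5 was at 0 counts in every library, and the part of depth in this was not tested.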
